A study of Mus musculus with 4 samples.

Results

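Platelet, coagulation and fibrinolysis genes were followed across days of injury in leg muscle that overexpresses Bmp4. The 9 genes were Ppbp, Pf4, F3, F10, F13a1, Thbd, Plau, Plaur and Plat, taken by symbol as 9 of the 32285 features of each section, and each symbol matched 1 feature. The spatial transcriptomes came from 4 fresh frozen sections of muscle from C57BL/6 mice aged 6 to 8 weeks, uninjured (day 0) or taken 1, 3 and 7 days after cardiotoxin injury. Each day had 1 section, the labels state that 3 tibial muscles were mixed per group, and which of them a section shows is not given in the sources used here. In Nse-Bmp4 mice a Bmp4 cDNA is driven by the rat neuron-specific enolase promoter, and bone forms in their muscle after injury. All 4 sections carried the transgene, so every comparison lies within Nse-Bmp4 muscle. Each section had 1 library, so no spread between animals was measured, no test was run, and all intervals are 95% intervals for counting error only.

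Coagulation starts when F3 (tissue factor) meets factor VII. Factor X then turns prothrombin into thrombin, thrombin turns fibrinogen into fibrin, and factor XIII cross-links the fibrin. Thrombomodulin, the product of Thbd, binds thrombin on endothelium and turns it toward activation of the anticoagulant protein C. Plasmin dissolves fibrin after plasminogen is cut by Plau (urokinase) or Plat (tissue plasminogen activator). Ppbp and Pf4 encode chemokines stored in platelet granules, and macrophages are also known to make Pf4. A muscle section measures the RNA present in it, not the clotting proteins that the liver secretes into blood.

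Promoter sequence is shown for 2 pairs of genes, the chemokine neighbours Ppbp and Pf4, whose levels parted between days, and F3 and Plaur, whose windows hold the same motif while their levels at day 1 went opposite ways. Windows from RefSeq, build GRCm38.p6, ran from 250 bases before to 50 bases after an annotated start and existed for 6 of the 9 genes. Thbd, Plau and Plat had none. Searches covered both strands. The GATA motif, spelled AGATAA, occurred in 11.2% of all 32851 windows of this length. The AP-1 motif, spelled TGANTCA, occurred in 7.81%. The TATA motif, spelled TATAAA, occurred in 13.6%. Capitals mark the matches, none of which overlapped in the windows printed. The 4 windows printed lie on the + strand, Ppbp at chr5:90768268-90768567, Pf4 at chr5:90772185-90772484, F3 at chr3:121723287-121723586 and Plaur at chr7:24462233-24462532.
Ppbp: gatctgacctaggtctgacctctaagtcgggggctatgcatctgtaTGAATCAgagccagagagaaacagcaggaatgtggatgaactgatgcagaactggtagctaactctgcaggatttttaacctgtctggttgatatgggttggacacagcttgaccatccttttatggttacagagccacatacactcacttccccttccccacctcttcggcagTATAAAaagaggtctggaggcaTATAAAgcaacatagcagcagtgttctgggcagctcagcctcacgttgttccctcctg
Pf4: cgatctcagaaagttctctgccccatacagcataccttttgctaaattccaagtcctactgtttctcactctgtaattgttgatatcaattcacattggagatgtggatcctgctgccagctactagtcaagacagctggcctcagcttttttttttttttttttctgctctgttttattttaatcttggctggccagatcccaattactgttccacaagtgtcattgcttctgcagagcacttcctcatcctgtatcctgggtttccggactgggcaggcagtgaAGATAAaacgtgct
F3: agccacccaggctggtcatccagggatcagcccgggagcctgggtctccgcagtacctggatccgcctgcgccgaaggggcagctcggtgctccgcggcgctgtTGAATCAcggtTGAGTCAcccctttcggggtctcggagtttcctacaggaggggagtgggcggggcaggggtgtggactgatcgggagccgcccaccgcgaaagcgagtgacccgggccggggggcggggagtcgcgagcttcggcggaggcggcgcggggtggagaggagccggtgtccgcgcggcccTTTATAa
Plaur: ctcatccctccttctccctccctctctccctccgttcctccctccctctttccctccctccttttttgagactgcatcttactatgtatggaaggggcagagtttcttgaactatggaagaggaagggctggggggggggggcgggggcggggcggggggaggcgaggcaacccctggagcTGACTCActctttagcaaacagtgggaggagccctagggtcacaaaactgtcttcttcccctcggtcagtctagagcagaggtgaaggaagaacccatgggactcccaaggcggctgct

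Ppbp and Pf4 lie on the same strand of chromosome 5, with 2371 bases between the end of the first and the start of the second. The Ppbp window held TATAAA 30 and 8 bases before the start and an AP-1 match 204 bases before it, whereas the Pf4 window held neither and had AGATAA 36 bases after the start. F3 had AP-1 matches 146 and 135 bases before its start and a TATA match on the other strand 43 bases after it. Plaur had an AP-1 match 69 bases before its start. The F10 and F13a1 windows held none of these letters. A match is a stretch of letters and not a bound site.

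Depth differed between the sections. They held 2107 to 3032 spots and 16777832 to 56113066 UMIs (unique molecular identifiers, each standing for 1 captured RNA molecule), and day 1 was the shallowest, with a median of 6322 UMIs per spot against 12119.5 to 21029 elsewhere. Levels are therefore given as CPM, the UMIs of a gene per 1000000 UMIs of its section, and 4 values in a row are those of days 0, 1, 3 and 7 in that order. Adult myofibre genes held 24.98% of all UMIs before injury and 8.29% to 14.7% after it. The median log2 CPM ratio to day 0 over all genes tested was 0.19, 0.56 and 0.65 for the 3 injured sections. TMM scaling, which centres the bulk of genes, moved those ratios by -0.21, -0.55 and -0.61. A spot covers several cells, and fewer cells of a type and less RNA per cell cannot be told apart in these values.

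The 9 genes followed different courses. Ppbp and Thbd were highest at day 1, Pf4 and F10 were high at days 1 and 3, F13a1, Plaur and Plat were highest at day 3, and F3 and Plau were lowest at day 1 and highest at day 7. All 9 genes had at least 10 UMIs over the 4 sections and were compared in every pair of days. At day 1, 6 of 9 were at least 2-fold above day 0 and 1 was at least 2-fold below, against 17.8% and 10.7% of all genes tested. At day 3, 6 were at least 2-fold above day 0 and 0 below, against 32.4% and 8.66% of genes. At day 7 the counts were 5 and 0, against 32.8% and 2.18%. From day 1 to day 3, 3 genes were at least 2-fold higher and 2 at least 2-fold lower, against 17.1% and 5.72%. From day 3 to day 7, 0 were higher and 4 lower, against 16.6% and 11.5%.

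The share of calls that were higher depended on the scale. Of all genes past 2-fold, those higher than day 0 made up 62.5%, 78.9% and 93.8% on the 3 injured days by CPM, and 49.5%, 52.9% and 68.7% with TMM. From day 1 to day 3 they made up 75% by CPM and 52.4% with TMM. For the 9 genes, TMM left 5, 5 and 3 higher than day 0 and 1, 0 and 0 lower. The shares of all genes were 14%, 19% and 15.1% higher and 14.2%, 16.9% and 6.88% lower. The calls lost under TMM were F13a1 at day 1, Plat at day 3, and F13a1 and Plau at day 7.

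**Figure D1:**
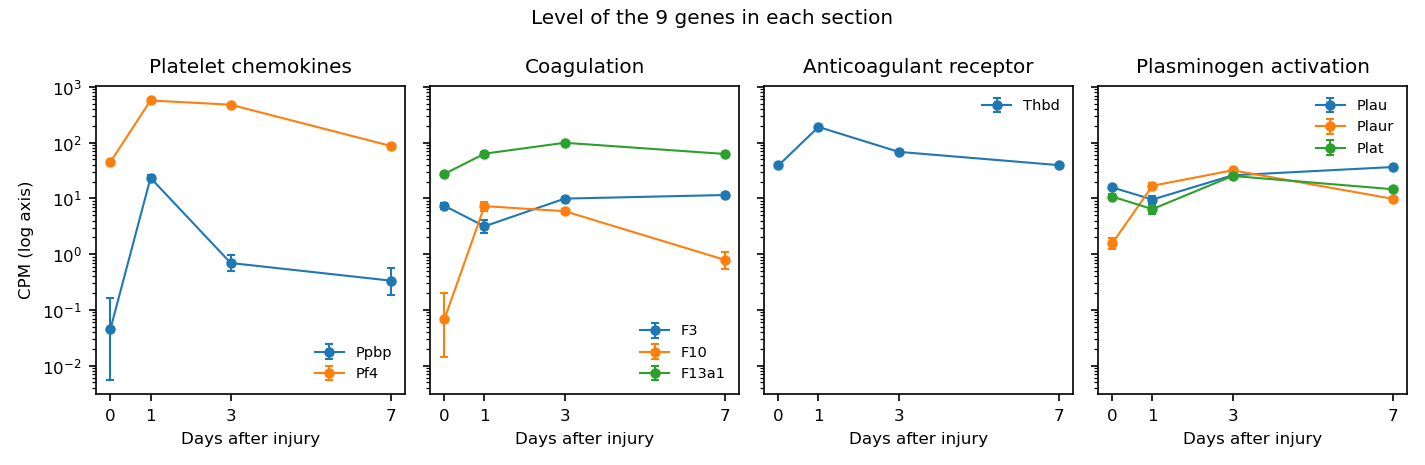
Level of each of the 9 genes in the 4 sections, in CPM on a log axis, against days after injury. Points are single sections, bars are 95% Poisson intervals for counting error, and lines join the days. Ppbp read 0.0456, 23.4, 0.695 and 0.335 CPM in order of days, while Pf4 stayed high at day 3.

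Ppbp, the precursor of a neutrophil-attracting platelet chemokine, stood out in the day 1 section. It had 2, 392, 39 and 14 UMIs, or 0.0456, 23.4, 0.695 and 0.335 CPM. The day 1 level was 512-fold that of day 0, with a counting interval of 141 to 4247 that is wide because day 0 rested on 2 UMIs. It was 33.6-fold that of day 3 (24.1 to 48.0) and 69.8-fold that of day 7 (41.1 to 129). From day 3 to day 7 it fell again, to 0.481 of its level (0.242 to 0.907), which was less than 2-fold once mitochondrial, haemoglobin and myofibre genes were left out of the total. At day 1, 269 of 2667 spots (10.1%) held a Ppbp UMI and the richest spot held 11. With every spot thinned to 2000 UMIs the share was 3.95% at day 1 (95% Clopper-Pearson interval 3.16 to 4.86) and 0.132% at day 3 (0.0361 to 0.339).

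Pf4 had a high floor and a long plateau beside Ppbp. Its levels were 45.1, 571, 479 and 87.0 CPM, from 1978, 9576, 26902 and 3640 UMIs. Day 1 was 12.7-fold above day 0 (12.1 to 13.3) and day 3 was 10.6-fold above (10.2 to 11.1). Days 1 and 3 differed by less than 2-fold, with a ratio of 0.840 (0.821 to 0.8599). From day 3 to day 7 the level dropped to 0.182 of its value (0.175 to 0.188). After thinning to 2000 UMIs, 8.13%, 49.9%, 46.1% and 13.9% of spots held Pf4. The ratio of Ppbp to Pf4 UMIs, read across days only, was 0.00101, 0.0409, 0.00145 and 0.00385. The neighbours thus parted after day 1, when Ppbp fell 33.6-fold and Pf4 changed by less than 2-fold.

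The summed level of genes that mark platelets and their precursors was not raised at day 1. The list of 10 platelet lineage markers (among them Itga2b, Gp1ba, Gp1bb, Gp5, Gp6, Gp9, Clec1b, Treml1 and Tubb1) summed to 3.33, 1.97, 4.08 and 9.18 CPM. At day 1 it held 33 UMIs, and Gp1ba, Gp5, Gp9, Treml1 and Tubb1 were at 0, where 0 UMIs allow up to 0.179 CPM (3 UMIs). These zeros did not mark out day 1, the shallowest section, since the same 5 genes had at most 2 UMIs each at day 0 and Tubb1 had 0 in all sections. Itga2b, the alpha chain of the fibrinogen receptor, had 25 of the 33 UMIs, and Gp1bb, a chain of the von Willebrand factor receptor, had 2. Clec1b, a platelet activating receptor, was past 2-fold above day 0 on 5 against 4 UMIs, with an interval of its ratio from 0.704 to 16.5 that includes 1. At day 7, when the list was highest, Gp1bb had 161 UMIs and Itga2b 198, while Gp1ba had 1 and Gp9 and Tubb1 had 0. In that section the list was highest, at 24.6 CPM, in the cluster of spots led by Col10a1, Col9a1 and Col2a1. The other clusters ran from 3.02 to 13.8 CPM. The red cell list was lowest in that cluster, at 127 CPM. Which cells held this RNA was not tested. The red cell list (haemoglobins and Alas2) stood at 1483, 712, 518 and 609 CPM, and the methods state that blood was wiped from the tissue surface. Of the 16 platelet and megakaryocyte genes in the pathway lists, 4 of 9 tested were at least 2-fold higher and 2 lower at day 1, against 17.8% and 10.7% of all genes. The 4 were Clec1b, P2ry12 (an ADP receptor), Selp (P-selectin, also made by endothelium) at 1.14, 8.76, 7.36 and 7.63 CPM, and Thbs1, an adhesive matrix protein also made outside platelets, at 9.94, 42.02, 216 and 94.3 CPM.

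**Figure D2:**
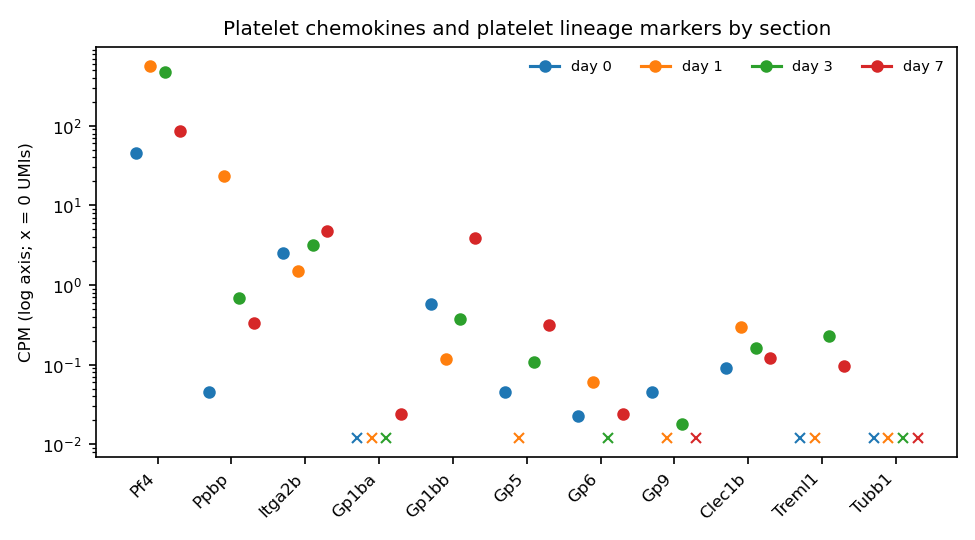
CPM (log axis) of Pf4, Ppbp and 9 platelet lineage markers in each section, 1 colour per day. Circles are values above 0 and crosses mark genes with 0 UMIs in that section. Ppbp was highest at day 1, at 23.4 CPM, while several markers were at 0 on that and other days.

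Within the day 1 section Ppbp was higher in spots rich in macrophage, monocyte and neutrophil RNA. In the 25% of spots with the highest share of macrophage markers (Cd68, Adgre1, Csf1r, C1qa, C1qb, C1qc, Lyz2 and Fcgr3) Ppbp stood at 79.4 CPM, against 12.8 in the other spots. That is a ratio of 6.23 (5.08 to 7.64), and for monocyte markers it was 5.94 (4.85 to 7.28). For neutrophil markers it was 3.48 (2.84 to 4.26) and for MSC (mesenchymal stem cell) markers 2.08 (1.67 to 2.58). For the red cell list the ratio was 0.956 (0.745 to 1.22) and for adult myofibre genes 0.276 (0.197 to 0.378). The macrophage-rich spots were shallow, with a median of 2719 UMIs against 7204.5, and the part of depth in the ratio was not tested. With spots under 1000 UMIs left out, the Ppbp ratio was 5.29. In the same split Pf4 had a ratio of 4.603 (4.42 to 4.79). In the 269 spots with Ppbp, Pf4 stood at 1330 CPM against 487 in the rest (ratio 2.73, 2.61 to 2.87), with median depths of 5904 and 6335 UMIs.

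Clustering of spots without the 9 genes and the listed genes gave 7 regions at day 1. Ppbp was highest, at 155 CPM (122 to 194), in a region of 421 spots led by Lars2, Arg1 and Thbs1, which had only 1164.5 UMIs per spot on average. A region of 417 spots led by Slfn4, Clec10a and Retnla stood at 67.7 CPM and held 179 of the 392 UMIs at 6340 UMIs per spot. These regions carried 3266 and 3417 CPM of macrophage markers, against 334 in the region led by Cyp2e1 and Inmt, where Ppbp was lowest at 3.71 CPM. They were also the richest of the 7 in monocyte markers (867 and 806 CPM, against 92.8 in that region) and neutrophil markers (424 and 383 CPM, against 31.9). The part of each list in the result was not tested.

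Pf4 kept its place in macrophage-rich spots on every day. The ratio for macrophage markers was 3.73, 4.603, 3.56 and 2.42, and the ratio for adult myofibre genes was 0.561, 0.523, 0.318 and 0.621. At day 3 the region led by Spp1, Sfrp2 and Adam8, with 781 spots, held 18259 of the 26902 Pf4 UMIs, at 921 CPM against 154 in the lowest region. It was the highest of the 7 regions for monocyte (622.5 CPM) and neutrophil (102.7 CPM) markers as well as macrophage markers. The part of each list in the level there was not tested. The macrophage list itself was 395, 1438, 7598 and 1964 CPM over the days, so Pf4 and the list did not peak together. Its part in the change of Pf4 between days was not tested.

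F3, the trigger of coagulation, was lowest at day 1. It stood at 7.36, 3.16, 9.93 and 11.5 CPM, from 323, 53, 557 and 482 UMIs. Day 1 was 0.429 of day 0 (0.315 to 0.575), and day 3 was 3.14-fold above day 1 (2.37 to 4.25). Days 3 and 7 were 1.35-fold and 1.57-fold above day 0 by CPM, while TMM turned the day 3 log2 ratio from 0.43 to -0.12 and left 0.04 at day 7, so no rise over day 0 was called. Tfpi, the inhibitor of the tissue factor complex, moved alongside, at 6.82, 4.23, 11.8 and 14.8 CPM, and the ratio of F3 to Tfpi UMIs lay between 0.746 and 1.08. F3 was low when Thbd was high, and the ratio of Thbd to F3 UMIs was 5.29, 60.6, 6.89 and 3.43.

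F3 was unevenly spread at day 7. It was highest, at 65.0 CPM (54.7 to 76.7), in a region of 197 spots led by Wfdc21, Cyp2e1 and Nnat, which held 141 of the 482 UMIs. That was 7.56-fold the rest of the section (6.17 to 9.23), and Pf4, F13a1, Thbd and Plat were highest in the same region at 2.19-fold to 3.51-fold. The region carried 4391 CPM of adipocyte markers and 1523 CPM of Schwann cell markers. It was also the highest of the 7 regions for smooth muscle (2790 CPM), MSC (2316), red cell (2005), endothelial (901), resident macrophage (742) and mast cell (251) markers, and the part of each in the result was not tested. Across the section, the 25% of spots richest in adipocyte markers had a ratio of 2.80 (2.32 to 3.37) for F3, and those richest in Schwann cell markers 2.78 (2.31 to 3.34). Other lists had overlapping intervals, among them MSC (2.61, 2.17 to 3.14), smooth muscle (2.48, 2.06 to 2.98) and resident macrophage markers (2.39, 1.97 to 2.88). The MSC ratios at days 0, 1 and 3 were 1.89 (1.5 to 2.385), 2.82 (1.55 to 5.04) and 1.985 (1.67 to 2.36). The adipocyte ratio at day 3 was 0.922 (0.746 to 1.13). At day 0 the Schwann cell ratio was 2.21 (1.76 to 2.78). Spots rich in regenerating muscle markers held less, the day 1 ratio being 0.325 (0.101 to 0.813) and the day 3 ratio 0.468 (0.378 to 0.576). That list stood at 6179, 336, 854 and 1420 CPM, so it was highest before injury. Actc1, 1 of its 8 genes, held 4125 of its 5641 UMIs at day 1 and 8010 of 47911 at day 3. The day 1 ranking was thus mostly one by Actc1, and its ratio rested on 5 of the 53 F3 UMIs.

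F10, the protease that makes thrombin, rose from the limit of detection. It had 3, 122, 331 and 33 UMIs, or 0.0684, 7.27, 5.90 and 0.789 CPM. Over day 0, the injured sections in order had ratios of 106 (35.5 to 523), 86.3 (29.3 to 420) and 11.5 (3.62 to 58.8), and the 3 UMIs at day 0 set their width. Days 1 and 3 were not told apart, with a ratio of 0.811 (0.657 to 1.01). F10 lay in macrophage-rich spots, where the day 1 ratio was 4.64 (3.19 to 6.72) and the day 3 ratio 3.85 (3.04 to 4.88), and in monocyte-rich spots, with 3.81 (2.61 to 5.54) and 4.70 (3.72 to 5.96). It was also raised in spots rich in neutrophil markers, at 2.91 (1.99 to 4.215) and 2.57 (2.06 to 3.21), and in MSC markers, at 2.10 (1.40 to 3.096) and 3.02 (2.42 to 3.77). The region led by Spp1, Sfrp2 and Adam8 held 225 of the 331 UMIs at day 3.

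F7, the partner of tissue factor and a gene outside the 9, ran a like course at 0.182, 6.32, 9.23 and 0.574 CPM from 8, 106, 518 and 24 UMIs. The other coagulation factors were scarce. The fibrinogen chains Fga and Fgb had 0 UMIs in all sections and Fgg 1 UMI at day 3, F11 and F13b had 0, and prothrombin (F2) had 2 to 18 UMIs per section. Of the 12 coagulation factors in the pathway lists 4 or 5 were tested against day 0. On the injured days in order, 1, 3 and 3 were at least 2-fold higher, against 17.8%, 32.4% and 32.8% of all genes. At day 3, 1 was lower, against 8.66%. Some of these calls rested on few UMIs and had intervals that include 1, namely F2 at day 3 (13 against 3 UMIs), F5 at day 7 (10 against 5) and Klkb1, lower at day 3 (3 against 7). The thrombin receptor F2r stood at 6.77, 6.38, 15.01 and 13.65 CPM. F2r belongs to a list of 4 protease-activated receptors, of which F2rl1 is cut by proteases other than thrombin. At day 1, 1 of the 4 was at least 2-fold higher and 2 (F2rl1 and F2rl3) were lower, against 17.8% and 10.7% of all genes. At each of days 3 and 7, 2 were higher (F2r and F2rl2), against 32.4% and 32.8%. F2rl3 was lower at day 3, against 8.66% of all genes. The calls of F2rl2 rested on 5, 12 and 11 UMIs against 4, with intervals that include 1.

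F13a1, the catalytic chain of factor XIII, which macrophages and platelets are known to make, was present before injury and highest at day 3. Its levels were 27.5, 63.4, 99.5 and 62.7 CPM. Day 3 was 3.61-fold above day 0 (3.40 to 3.85), and days 1 and 7 were not told apart, with a ratio of 0.988 (0.92 to 1.06). The 2.30-fold rise at day 1 and the 2.28-fold rise at day 7 were both under 2-fold with TMM. F13a1 followed the resident macrophage markers (Lyve1, Cd163, Folr2, Mrc1, Cbr2 and Timd4) at every day, with ratios of 3.32, 3.55, 2.84 and 3.72. At day 3 it was highest, at 343 CPM (302 to 389), in a region of 83 spots led by Pck1, Wfdc21 and Cfd, not in the large region led by Spp1 where Pf4 and F10 were highest, which stood at 144 CPM. The region of 83 spots carried 12914 CPM of adipocyte markers. It was also the highest of the 7 regions for tendon (2702 CPM), MSC (2412), resident macrophage (1834), chondrogenic (719), endothelial (391) and Schwann cell (339) markers. The part of each list in the result was not tested.

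**Figure D3:**
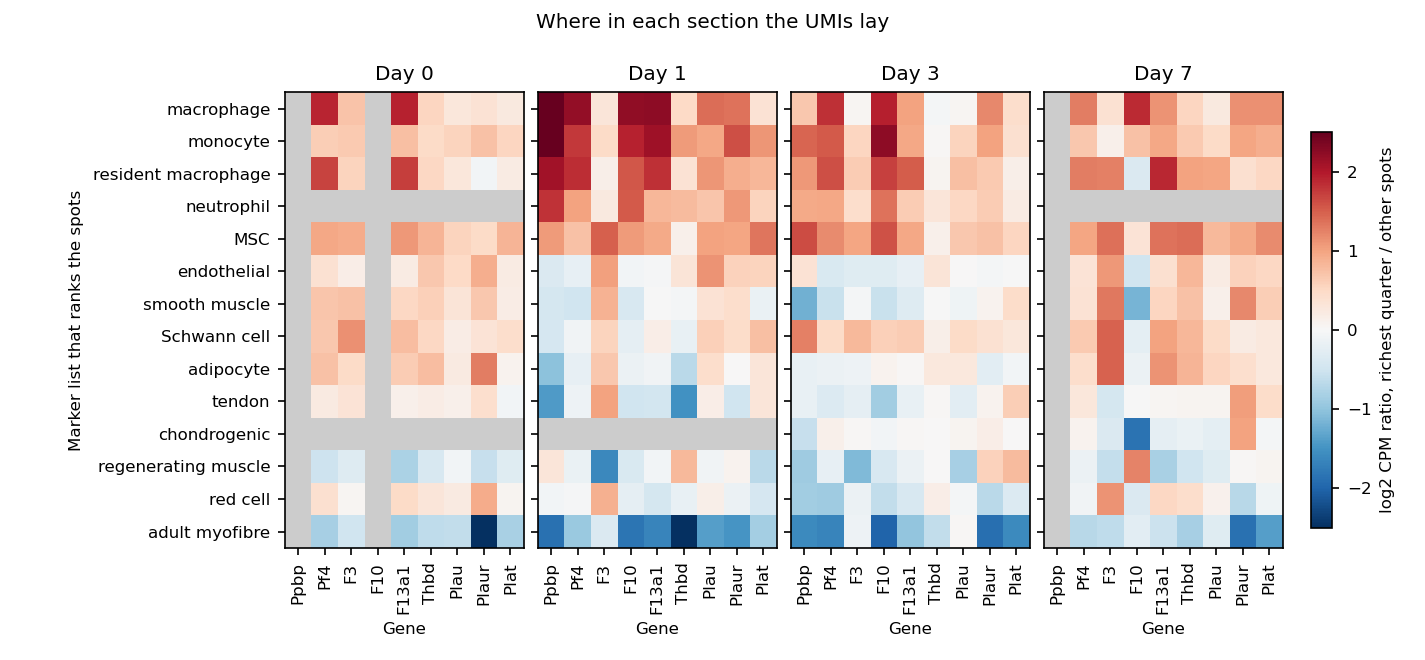
log2 ratio of CPM between the 25% of spots richest in a marker list and the other spots of the same section, for each gene (columns) and list (rows), 1 panel per day. Red is higher in the rich spots, blue lower, values past the ends of the scale take the end colour, and grey marks lists or genes with too few UMIs (under 30 of the gene, or a list found in too few spots). Pf4, F10 and F13a1 were red in the macrophage rows at day 1, and Thbd at day 1 was deep blue in the adult myofibre row.

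Thbd, the thrombin receptor of endothelium that turns thrombin from a clotting to an anticoagulant enzyme, peaked at day 1. It stood at 39.0, 191, 68.4 and 39.5 CPM, from 1710, 3210, 3839 and 1653 UMIs. Day 1 was 4.91-fold above day 0 (4.63 to 5.21), 2.80-fold above day 3 (2.67 to 2.93) and 4.84-fold above day 7 (4.56 to 5.14). Day 7 could not be told from day 0, with a ratio of 1.01 (0.947 to 1.09), although TMM put it at a log2 ratio of -0.59. The endothelial markers (Pecam1, Cdh5, Kdr, Flt1, Tie1, Emcn and Egfl7) stood at 408, 288, 236 and 416 CPM, lowest at day 3. Their part in the result was not tested. After thinning to 2000 UMIs, 26.0% of spots held Thbd at day 1 (24.2 to 27.9), against 7.13% before injury and 11.99% at day 3.

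The Thbd RNA of day 1 was low in the spots richest in myofibre genes and only weakly raised in spots rich in endothelial markers. The 25% of spots richest in adult myofibre genes stood at 29.97 CPM against 265 elsewhere, a ratio of 0.113 (0.0957 to 0.133), while the ratio was 1.26 (1.16 to 1.36) for endothelial, 1.41 (1.30 to 1.54) for macrophage and 2.08 (1.93 to 2.25) for monocyte markers. It was highest, at 391 CPM (373 to 409), in a region of 626 spots led by Gadd45a, Sox9 and Mt4, which held 1850 of the 3210 UMIs. That region had 1020 CPM of macrophage markers, less than the section's 1438, and Ppbp stood at 11.6 CPM there. It was not free of muscle RNA, with 113279 CPM of adult myofibre genes, against 94259 and 87075 in the regions led by Lars2 and by Slfn4. It was also the highest of the 7 regions for regenerating muscle (452 CPM) and chondrogenic (64.4 CPM) markers. Sox9, 1 of the 10 chondrogenic genes, stood at 62.9 CPM there, so that value was nearly all Sox9. The part of each list in the result was not tested. The region led by Slfn4, Clec10a and Retnla followed at 341 CPM and the region led by Lars2, Arg1 and Thbs1 at 277, while the region led by Mss51, Fmod and Angptl7 had 30.9. Thbd was itself among the 10 leading genes of its highest region, although it was left out of the clustering.

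Thbd was more evenly spread at day 3. There the ratios were 0.968 (0.905 to 1.04) for macrophage and 1.03 (0.956 to 1.10) for monocyte markers, and the 7 regions ran from 36.4 to 81.5 CPM. At day 7 Thbd was highest, at 123 CPM (108 to 138), in the region led by Wfdc21, Cyp2e1 and Nnat where F3 was highest too. Across the section the ratio was 2.65 (2.40 to 2.92) for MSC markers and 1.77 (1.60 to 1.96) for endothelial markers. The MSC list (Pdgfra, Prrx1, Ly6a, Ly6e, Cxcl12 and Adam12) was chosen by the study on cells of the same model, so it is no independent evidence of direction. Of the 9 other anticoagulant genes, 6 or 7 were tested against day 0. At day 1, 0 were at least 2-fold higher and 1 lower, against 17.8% and 10.7% of all genes. At each of days 3 and 7, 4 were higher, against 32.4% and 32.8%. The day 7 count includes Serpind1 on 7 against 1 UMIs, with an interval of its ratio from 0.943 to 331 that includes 1. By CPM the log2 ratios were 1.01 for Pros1 and 1.45 for Anxa5 at day 3. At day 7 they were 1.12 for Tfpi, 1.11 for Pros1 and 1.29 for Serpind1. The TMM shifts of -0.55 at day 3 and -0.61 at day 7 take all of these under 2-fold. With TMM, 19% and 15.1% of all genes were higher. Procr, the endothelial protein C receptor, stood at 14.0, 10.4, 7.98 and 20.7 CPM and protein C itself (Proc) had 0 UMIs in all 4 sections.

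**Figure D4:**
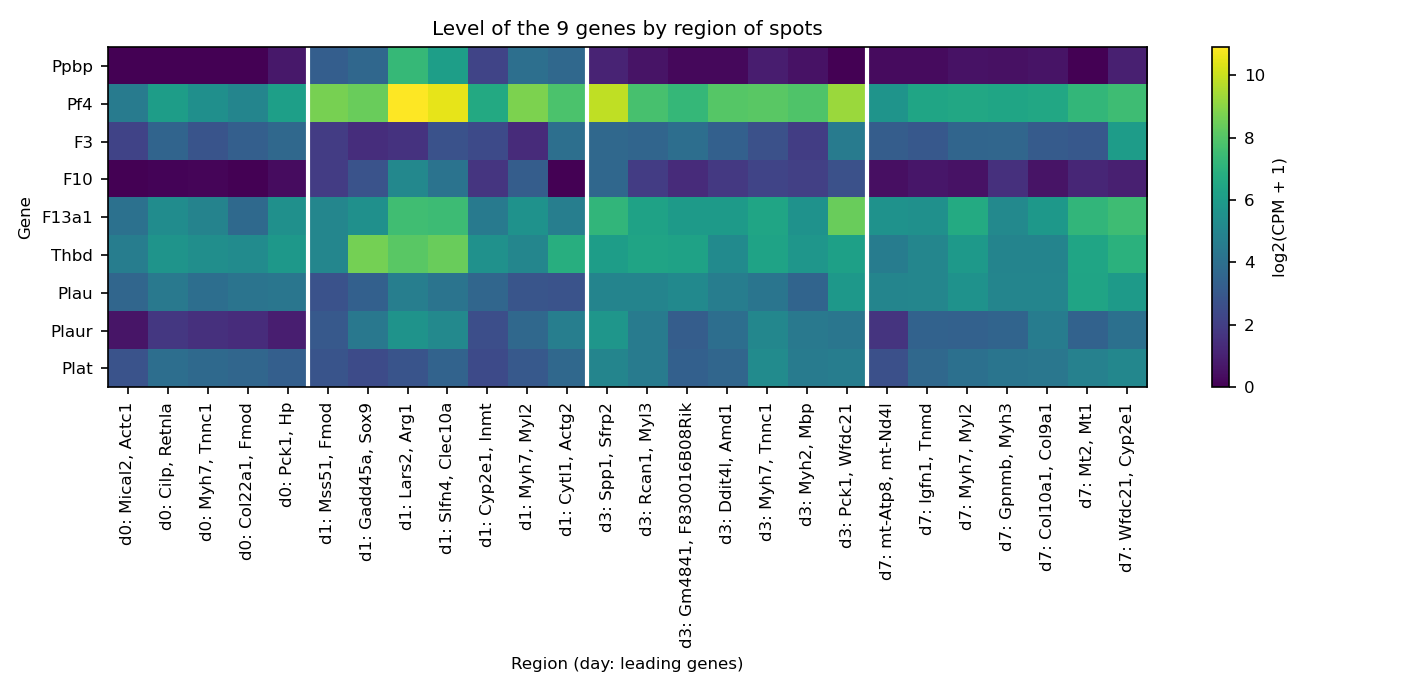
Level of the 9 genes, as log2(CPM + 1), in the 26 regions of the 4 sections. Columns are regions, named by day and leading genes and separated by white lines between days. At day 1 Ppbp was highest in the region led by Lars2 and Arg1, at 155 CPM, and Thbd in the region led by Gadd45a and Sox9, at 391 CPM.

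The plasminogen activators and their receptor parted at day 1. Plau stood at 15.7, 9.54, 26.0 and 36.6 CPM, and Plat at 10.8, 6.44, 25.3 and 14.6. Both were lower at day 1 than at day 0, at 0.606 (0.507 to 0.721) and 0.598 (0.481 to 0.739), which is less than 2-fold. From day 1 to day 3 Plau was 2.73-fold higher (2.31 to 3.23) and Plat 3.93-fold (3.23 to 4.83). After day 3 they went apart, as Plau was 1.41-fold higher at day 7 (1.31 to 1.51) and Plat was 0.577 of its day 3 level (0.524 to 0.635). The ratio of Plau to Plat UMIs was 1.46, 1.48, 1.03 and 2.504. With TMM the log2 ratio of Plat at day 7 to day 0 turned from 0.44 to -0.17.

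Plaur, the receptor that holds urokinase on the cell surface, was instead already high at day 1. It stood at 1.57, 16.9, 31.9 and 9.82 CPM, from 69, 283, 1792 and 411 UMIs. The ratios to day 0 were 10.7 (8.22 to 14.2), 20.3 (16.0 to 26.2) and 6.25 (4.83 to 8.18), so all 3 injured sections stood above day 0. The ratio of Plau to Plaur UMIs, read across days, was 10, 0.565, 0.814 and 3.72, lowest when the receptor was high and the activator low.

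Plasminogen (Plg), the substrate of both activators, had at most 2 UMIs in a section. Its binding partners Anxa2 and S100a10 rose from 114 and 155 CPM before injury to 449 and 544 a day later. Of the 11 plasminogen system genes, 4 of 8 tested were at least 2-fold higher and 1 lower at day 1, against 17.8% and 10.7% of all genes. Higher were 4 of 7 at day 3 and 3 of 8 at day 7, against 32.4% and 32.8%. Over all 52 pathway genes outside the 9, the counts were 10 higher and 6 lower of 31 tested at day 1, 18 and 2 of 34 at day 3, and 18 and 0 of 35 at day 7, to be read against the shares of all genes given above. All counts of pathway genes are by CPM and were not repeated with TMM.

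By CPM alone, the 3 genes shared their highest region at day 0, led by Cilp, Retnla and Pi16, and Plau and Plaur shared theirs at day 1, while at days 3 and 7 each had a region of its own. Many highest regions were not told apart from the next by counting error. At day 0 Plau stood at 19.99 against 18.2 CPM and Plaur at 2.43 against 1.89. At day 1 Plau had 24.5 CPM (12.65 to 42.8, 12 UMIs) against 17.4 (12.7 to 23.2), and the highest region of Plat rested on 4 UMIs. At day 7 the intervals overlapped for all 3. Plaur was in macrophage- and monocyte-rich spots, where the day 1 ratios were 2.55 (1.96 to 3.28) and 3.04 (2.36 to 3.89) and the day 3 ratios 2.29 (2.08 to 2.51) and 2.02 (1.84 to 2.21). At day 7 it was highest, at 22.9 CPM (18.5 to 28.0), in the region led by the cartilage collagens Col10a1, Col9a1 and Col2a1, and its ratio for chondrogenic markers was 1.998 (1.63 to 2.44). That region was also the highest of the 7 for monocyte (230 CPM) and tendon (1667 CPM) markers, and the part of each list was not tested. In spots rich in regenerating muscle markers at day 3, Plat had a ratio of 1.73 (1.56 to 1.93) and Plaur 1.49 (1.36 to 1.64), whereas Plau had 0.566 (0.501 to 0.639). Plau had ratios of 1.22 (1.03 to 1.44), 1.04 (0.930 to 1.16) and 1.19 (1.07 to 1.32) for macrophage markers at days 0, 3 and 7, and 2.62 (1.85 to 3.67) at day 1. At day 7 it was highest, at 82.4 CPM (71.4 to 94.6), in a region led by Mt2, Mt1 and Ccl2.

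**Figure D5:**
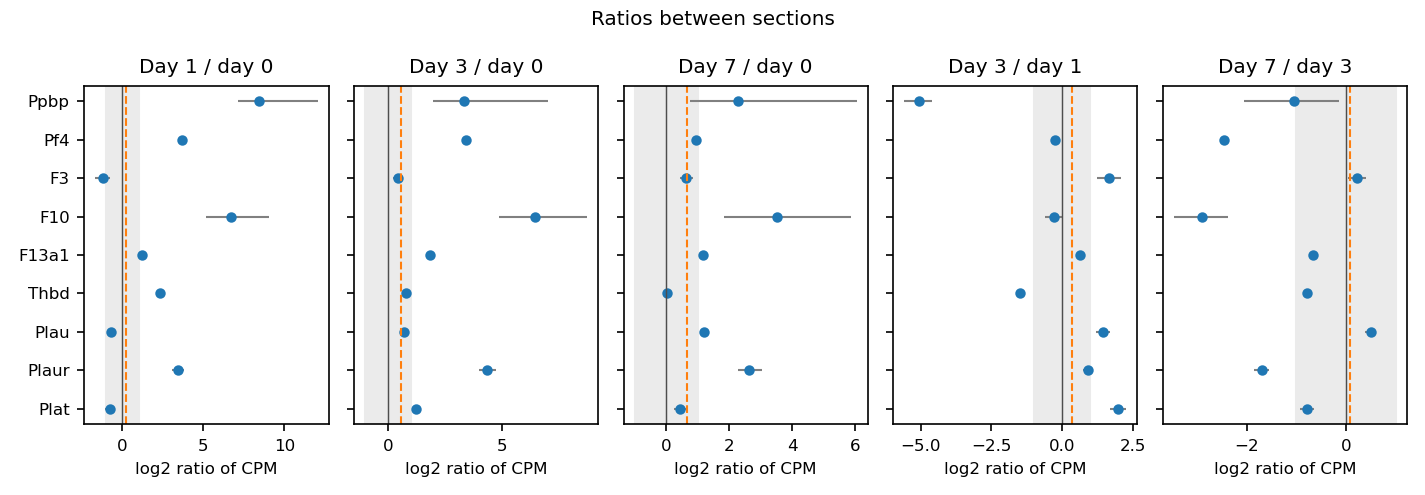
log2 ratio of CPM between sections for the 9 genes, 1 panel per pair of days, each with its own axis range. Bars are counting intervals at 95%, the grey band spans ratios under 2-fold, the solid line is no change and the dashed line is the median of all genes tested. At day 1 Ppbp, Pf4, F10, F13a1, Thbd and Plaur lay above the band and F3 below it.

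Across the 26 regions of the 4 sections, Pf4, F10 and Plaur were the most alike of the 9 genes. Pearson's r of log2(CPM + 1) was 0.912 for Pf4 and F10, 0.833 for Pf4 and Plaur, 0.718 for F10 and Plaur, and 0.705 for Ppbp and Pf4. F13a1 stood between, at 0.688 with Pf4 and 0.637 with Plau. F3 had 0.622 with Plau, 0.557 with Plat and -0.464 with Ppbp. The regions share 4 libraries and their depths, so these values are descriptions with no p. Among 12707 other genes with at least 200 UMIs, the most like Pf4 were Dok2 (0.976), Ccr1 and Ccl9, and the most like F13a1 were Mrc1, the mannose receptor of macrophages (0.968), Sema4a and Ednrb. Plaur was most like Lilr4b, Tuba1c and Fxyd5 (0.969 to 0.97), and F10 most like Ube2d3, Cd177 and Dppa3 (0.926 to 0.93). Ppbp was most like Arg1 (0.918) and Mt4 (0.917). For Thbd they were Mafk, Ddx10 and Ubxn4 (0.811 to 0.874), for F3 Susd2 (0.838) and S1pr3 (0.826), for Plau Ms4a4d, Ash1l and Tmbim6 (0.86 to 0.867), and for Plat Fbn1, the matrix protein fibrillin, with Pltp and Mfap5 (0.876 to 0.904).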

How the data were processed

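Spatial RNA was measured on 1 section per day. The deposited values were UMI counts per gene and spot, made by the authors with Space Ranger (1.2.0 in the file headers, a later version in the methods, while the labels describe Cell Ranger 5.0.0). The build is mm10 per the labels. All 10835 spots were used. Of 4078 barcodes, 1341 occurred in all 4 sections, as array positions do. Counts were summed per section, scaled to CPM, and given exact Poisson intervals, and ratios have exact conditional binomial intervals, all for counting error only. A gene was compared if it had 10 UMIs or more in all and over 3 UMIs in a section of the pair, and values under 3 UMIs were entered at 3 for the calls. Spots were thinned to 2000 UMIs (20 draws), which left out 17, 513, 9 and 84 spots at days 0, 1, 3 and 7. Spots were ranked by the share of a marker list in their UMIs, except lists found in under 25% of spots. Regions were Leiden clusters (2000 variable genes, 30 components, 15 neighbours, resolution 0.5, at least 20 spots) made without the 9 genes, the listed genes, and mitochondrial and haemoglobin genes. No doublet caller was run, since spots hold several cells. The genes, the 5 pathway lists and the 17 marker lists were chosen with earlier results of these data known. Named beyond the lists were, per gene, the 3 genes of highest r over regions and the 3 leading genes (at least 50 CPM) of its highest region; leading genes of other regions were named after their values were seen. Some genes that these rules name are not reported here. The mast cell, tendon, smooth muscle and skin epithelium lists stood at 29.8, 102, 669 and 7.29 CPM at day 0. At day 1 they stood at 2.32, 459, 265 and 5.96 CPM. The neutrophil list stood at 1.55 CPM at day 0 and 161 at day 1. Calculations were tested on simulated data. Counting steps used SciPy 1.17.1, NumPy 2.4.6 and pandas 2.3.3 in Python 3.11.15, clustering used leidenalg 0.10.2, scikit-learn 1.9.0 and Scanpy 1.11.5, scaling used DESeq2 1.42.0 and edgeR 4.0.16 in R 4.3.3, and plots used matplotlib 3.10.9.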

Additional observations from a re-analysis of the deposited data

How the results depend on the processing

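Of 27 ratios past 2-fold, TMM factors kept 23, DESeq2 size factors kept 24, a total from which myofibre, haemoglobin and mitochondrial genes were removed kept 23, and spots of at least 1000 UMIs kept 27, and none of the 27 changed sign. Of the 9 genes, 3 were at least 2-fold above day 0 at day 7 under each of the first 3 scales, against 5 by CPM. The shares of all genes were 15.1%, 14.8% and 23.2%, against 32.8% by CPM. That reduced total also lost Ppbp from day 3 to day 7. A fold of 1.5 gave 6, 8 and 7 higher than day 0 on the injured days in order, 3 lower at day 1, 5 higher from day 1 to day 3 and 7 lower from day 3 to day 7. A fold of 4 gave 5, 4 and 3 higher than day 0, 0 lower at day 1, 0 higher and 1 lower from day 1 to day 3, and 2 lower from day 3 to day 7. Shares of all genes past folds of 1.5 and 4 were not counted, so these counts have no background beside them. A minimum of 100 UMIs, or none, changed no count. With the richest 10% of spots in place of 25%, 203 of 464 ratios moved and 6 changed side: at day 1, Ppbp and Pf4 in Schwann cell spots (1.10 and 1.04), and Pf4 in tendon (1.26) and adipocyte spots (1.52), and at day 3, Pf4 (1.02) and F13a1 (1.03) in tendon spots. With the reduced total 97 moved, and Thbd in MSC spots at day 3 was 0.912. Of 36 shares of spots with a UMI, 30 moved with thinning to 1000 UMIs, 30 with 4000 and 34 with none. At most 1 of the 3 genes named as most alike was named again for 6 of 9 genes with Spearman's rho and for 6 of 9 with 49 finer regions. The cause was not tested. No paired analysis was possible because each day has 1 section. F10 and Ppbp at day 0 rest on 3 and 2 UMIs, in the section of highest median depth (21029 UMIs per spot), so their ratios to day 0 are imprecise.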
